A study of Mus musculus and Homo sapiens with 22 samples.

Results

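The proteasome subunit genes of the mouse were taken as the genes of the 12 libraries labelled 4T1 whose symbol is Psma, Psmb, Psmc, Psmd, Psme, Psmf or Psmg followed by a number, pseudogenes left out. Of 38924 gene IDs, 48 fitted: 8 alpha subunits of the 20S core (Psma1 to Psma8), 8 constitutive beta subunits (Psmb1 to Psmb7 and Psmb11), the 3 immunoproteasome subunits Psmb8, Psmb9 and Psmb10, 6 ATPases and 11 non-ATPase subunits of the 19S particle, 5 activators and regulators (Psme1 to Psme4 and Psmf1) and 7 assembly factors (Psmg1 to Psmg4, Psmd5, Psmd9 and Psmd10). The low-count filter kept 46 of the 48 and removed Psma8 and Psmb11, known as the testis and the thymus forms of a core subunit. The rule used names alone and no measured value.

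RNA of cells labelled 4T1, a mammary carcinoma line known to come from a female mouse, was sequenced 24 h after addition of vehicle (DMSO), ENMD-2076 or TAK901, 2 kinase inhibitors known for their action on Aurora kinases. The 6 groups of 2 libraries were DMSO 1 and 2, ENMD-2076 at 1.25 µM, ENMD-2076 at 2.5 µM, DMSO 3 and 4, TAK901 at 1 µM and TAK901 at 2 µM. ENMD-2076 was compared with DMSO 1 and 2, and TAK901 with DMSO 3 and 4, because the titles and tables fall into these 2 naming sets. The ENMD-2076 doses are those of the treatment labels. The growth protocol gives 1 or 2 µM for these cells, and the column headers of the ENMD-2076 tables read 10uM. The labels do not say whether the 2 libraries of a group came from separate cultures, so p-values measure only the spread between these libraries.

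The proteasome degrades proteins marked with ubiquitin. Its 20S core is a stack of rings in which alpha subunits gate the entrance and the beta subunits Psmb5, Psmb6 and Psmb7 cut peptide bonds. The 19S particle binds the substrate, removes its ubiquitin and, by means of its ATPases, unfolds it and feeds it into the core. Interferon is known to induce Psmb8, Psmb9 and Psmb10, which take the places of Psmb5, Psmb6 and Psmb7 in newly built cores, together with the activator subunits Psme1 and Psme2, and this form is known for making peptides for MHC class I.

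The libraries held between 3.75 and 30.9 M reads in genes, the smallest being the 2 TAK901 2 µM libraries with 6.00 and 3.75 M. The naming sets stood apart: 4 Y-linked genes had 0 reads in every library of set 1 and 1004 to 7021 reads in each library of set 2, and Hnf4a, a transcription factor of gut, liver and pancreas, was at 0 in set 1 and at 220 to 269 CPM (reads scaled to library size) in set 2. In set 2 these values go against the label, so its libraries are named below by their labels alone. Epithelial markers were present in both sets, at a sum of 4062 to 4257 CPM in DMSO 1 and 2 and ENMD-2076 1.25 µM, 2385 and 2413 CPM in ENMD-2076 2.5 µM and 5079 to 6330 CPM in set 2, with Krt5 at or near 0 throughout. Single markers moved both ways within this sum. From DMSO 1 and 2 to 1.25 µM, Cdh1 rose from 409 and 430 to 798 and 795 CPM. Krt14 rose from 0.646 and 0.291 to 56.9 and 54.0 CPM, and Krt18 fell from 1398 and 1407 to 881 and 866 CPM. Krt19 was at 67.9 and 65.2 CPM in DMSO 1 and 2 and at 1064 and 902 CPM in DMSO 3 and 4. Krt7 was at 945 and 973 against 174 and 167 CPM. The ENMD-2076 2.5 µM libraries also stood apart in their composition, with 2185 and 2004 CPM of the noncoding transcript Gm26917 against 29.9 to 50.6 CPM in the rest of set 1, and with scaling factors of 0.766 and 0.784 against 0.989 to 1.12 elsewhere. The share of reads in mitochondrial genes was 3.92% and 4.13% in DMSO 1 and 2, 6.21% and 7.09% with 1.25 µM, 8.83% and 8.72% with 2.5 µM, 1.94% and 2.04% in DMSO 3 and 4 and 2.64% to 2.98% with TAK901. The part of these features in the results was not tested. In bulk RNA, fewer cells of a type and less RNA per cell cannot be told apart.

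In the vehicle controls the members together took 0.486% and 0.488% of the reads of DMSO 1 and 2, and 0.614% and 0.605% of those of DMSO 3 and 4. Per length (RPKM, TMM-scaled CPM per kilobase of exon), the core and the 19S particle were at like levels in DMSO 1 and 2, with class medians of 39.8 RPKM for the alpha subunits, 46.2 for the constitutive beta subunits, 48.7 for the ATPases and 39.1 for the non-ATPase subunits. The most abundant member was Psma6, an alpha subunit, at 153 RPKM, followed by Psma5 at 121 RPKM and the ATPase Psmc1 at 119 RPKM. The immunoproteasome subunits were below their constitutive counterparts. Psmb8 stood at a mean of 4.06 RPKM against 48.9 for Psmb5, Psmb9 at 0.530 against 30.2 for Psmb6, and Psmb10 at 7.40 against 42.4 for Psmb7. The activator pair Psme1 and Psme2 stood at 22.2 and 29.5 RPKM, and the assembly factors had a median of 11.3 RPKM.

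Promoter sequences were taken from RefSeq (GRCm38.p6), which held 40 of the 48 members; Psma8, Psmb1, Psmb2, Psmb7, Psmc3, Psmd3, Psmd7 and Psmg2 were not matched. Shown are the 250 bases before the annotated start of Psmb8 and Psmb9, immunoproteasome genes that were higher at the lower ENMD-2076 dose and did not pass the test at the higher one, and of a beta and an alpha subunit, Psmb3 and Psma2, which were higher at the higher dose. Capitals mark matches, on either strand, to the CCAAT box (CCAAT), the interferon-stimulated response element (GAAA, NN and GAAA in a row), the gamma-activated site (TTCNNNGAA) or the antioxidant response element core (TGACNNNGC).
Psmb8: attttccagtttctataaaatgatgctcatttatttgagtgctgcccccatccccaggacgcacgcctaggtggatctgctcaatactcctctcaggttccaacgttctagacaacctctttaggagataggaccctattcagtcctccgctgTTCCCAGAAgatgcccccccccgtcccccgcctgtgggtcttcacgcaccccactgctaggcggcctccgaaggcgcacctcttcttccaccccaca
Psmb9: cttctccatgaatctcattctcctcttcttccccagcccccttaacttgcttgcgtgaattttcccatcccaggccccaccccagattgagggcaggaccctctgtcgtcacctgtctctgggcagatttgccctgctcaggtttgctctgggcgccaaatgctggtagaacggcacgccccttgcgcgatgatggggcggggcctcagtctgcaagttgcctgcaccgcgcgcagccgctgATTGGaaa
Psmb3: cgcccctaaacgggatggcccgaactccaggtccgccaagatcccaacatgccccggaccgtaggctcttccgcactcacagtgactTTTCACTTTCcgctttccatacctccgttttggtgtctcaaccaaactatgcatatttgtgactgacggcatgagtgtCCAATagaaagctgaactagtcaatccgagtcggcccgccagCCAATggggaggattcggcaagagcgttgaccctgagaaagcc
Psma2: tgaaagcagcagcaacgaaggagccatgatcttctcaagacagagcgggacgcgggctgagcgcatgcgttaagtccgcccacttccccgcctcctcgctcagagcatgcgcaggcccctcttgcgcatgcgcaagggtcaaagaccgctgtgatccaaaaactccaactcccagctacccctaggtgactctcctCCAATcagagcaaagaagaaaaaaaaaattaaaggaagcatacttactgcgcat

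Psmb8 (chr17:34197945-34198194, plus strand) held a gamma-activated site pattern starting 97 bases before the RefSeq start, and Psmb9 (chr17:34187331-34187580, minus strand) a CCAAT box 8 bases before it. The same window of Psmb10 held none of the 4 patterns. Psmb3 (chr11:97703184-97703433, plus strand) held an interferon-stimulated response element pattern at 163 bases and CCAAT boxes at 85 and 43 bases before the start, and Psma2 (chr13:14612992-14613241, plus strand) a CCAAT box at 54 bases. The RefSeq starts of Psmb8 and Psmb9 lie inside the gene spans of the GENCODE annotation, so other starts are annotated outside these windows. Over these 250-base windows, the CCAAT box was in 14 of the 40 members (35.0%) and in 37.5% of the 27025 genes with a promoter. It was in 5 of 7 alpha subunits, 2 of 5 constitutive beta subunits, 1 of 3 immunoproteasome subunits and 2 of 5 ATPases. In the other classes it was in 2 of 9 non-ATPase subunits, 1 of 5 activators and regulators and 1 of 6 assembly factors. The antioxidant response element core was in 12.5% of members and 11.5% of all genes with a promoter, the interferon-stimulated response element in 7.50% and 3.46%, and the gamma-activated site in 5.00% and 8.13%. A match is a description of letters and not of a bound site.

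With ENMD-2076 at 1.25 µM most proteasome genes rose by a small amount and the interferon-linked ones by a large one. Of 46 members 28 rose (22.6% of all genes tested did) and 1 fell (23.2%; either way 45.9%), at an adjusted p under 0.05 in edgeR's quasi-likelihood test. Their median log2 fold change was 0.20, against 0.00 over all genes, and 34 members did not overlap between the groups, against a background of 65.2%. All 7 alpha subunits rose, by 0.17 to 0.65 on the log2 scale. Of the 7 constitutive beta subunits 4 rose (Psmb1, Psmb2, Psmb6 and Psmb7), of the 6 ATPases 3 (Psmc2, Psmc4 and Psmc5) and of the 11 non-ATPase subunits 6 (Psmd1, Psmd2, Psmd7, Psmd8, Psmd12 and Psmd13). All 3 immunoproteasome subunits and 4 of 5 activators and regulators (Psme1 to Psme4) rose, while of 7 assembly factors Psmd10 rose and Psmd9 fell. Without DMSO 2 the beta count was 1, and without either DMSO 1 or DMSO 2 the ATPase count was 1.

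**Figure D1:**
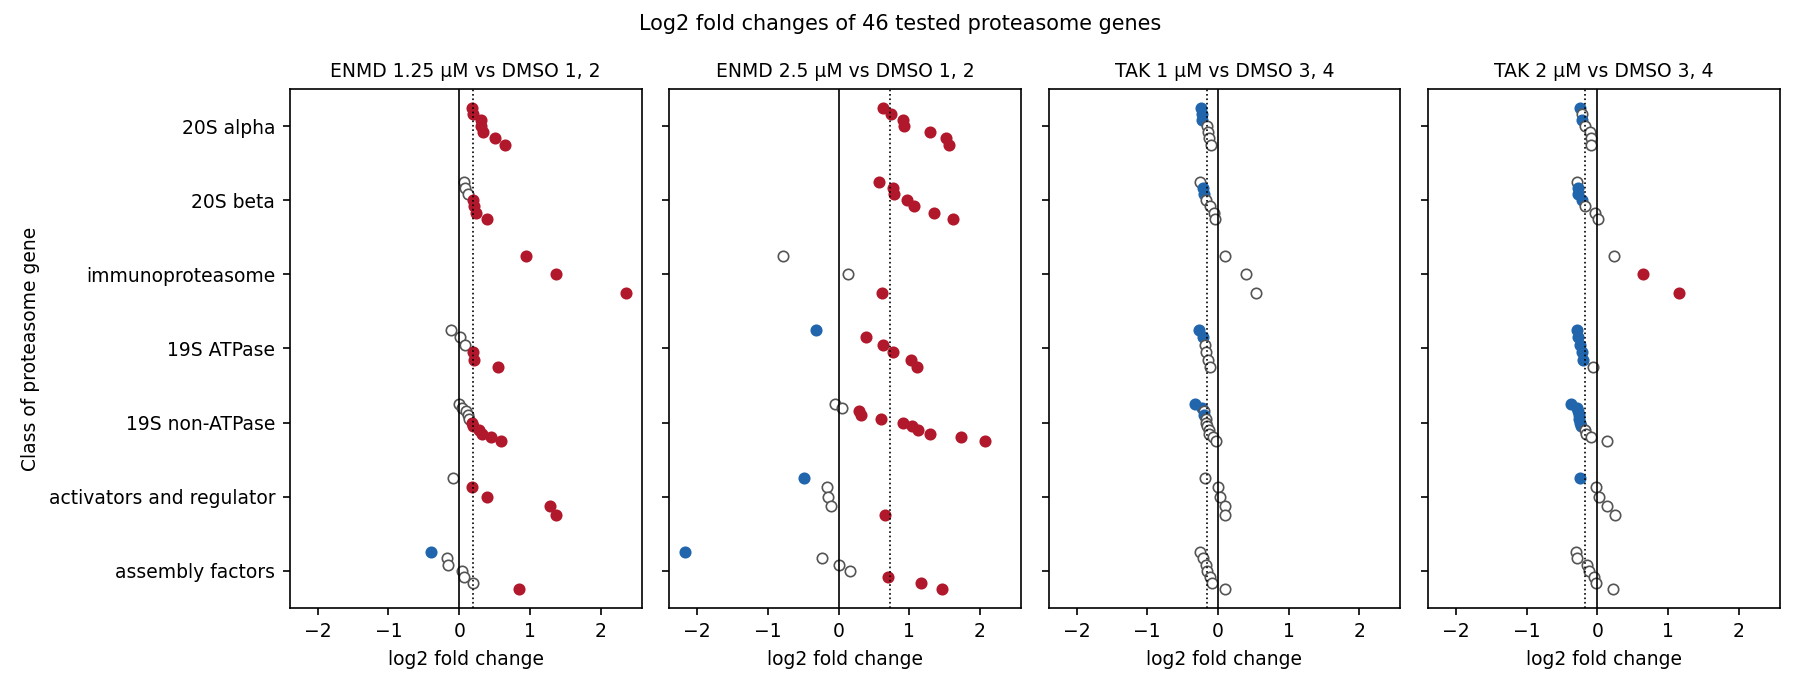
Log2 fold change of each of the 46 tested members in the 4 comparisons with DMSO, ordered by class (horizontal axis, log2 fold change; filled red points passed the threshold as higher, filled blue as lower, open points did not pass; the dotted line is the median of the members). At ENMD-2076 1.25 µM the immunoproteasome subunits and Psme1 and Psme2 lie farthest to the right, and at 2.5 µM the core and 19S subunits do; with TAK901 the medians lie at -0.16 and -0.18.

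Psmb10, the subunit that replaces Psmb7, had the largest rise at 1.25 µM. Psmb10 (ENSMUSG00000031897, chr8:105935735-105938444, minus strand) stood at 12.2 and 13.1 CPM in DMSO 1 and 2, at 72.0 and 57.7 CPM with 1.25 µM and at 16.3 and 22.6 CPM with 2.5 µM. The 1.25 µM libraries were far above all others of the set, and those of 2.5 µM a little above the controls, without overlap. The change was 2.35 ± 0.14 on the log2 scale (SE, 5.11-fold, adjusted p = 1.7e-15) at 1.25 µM and 0.61 ± 0.15 (adjusted p = 6.6e-04) at 2.5 µM, and the higher dose was 3.35-fold below the lower (adjusted p = 4.0e-13). Under total-count scaling the 2.5 µM value was 0.25 and did not pass.

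Psmb8 (ENSMUSG00000024338, chr17:34197721-34201454, plus strand), which replaces Psmb5 and lies in the MHC region, stood at 13 and 14.4 CPM in the controls, 33.3 and 37.6 CPM with 1.25 µM and 12.9 and 17.4 CPM with 2.5 µM. It rose 2.59-fold at 1.25 µM (log2 1.37 ± 0.15, adjusted p = 3.4e-09), where the groups did not overlap. At 2.5 µM the groups overlapped, with a log2 value of 0.13 ± 0.16 (adjusted p = 0.486) that turned negative under total-count scaling, and the higher dose was below the lower by a log2 value of -1.24 ± 0.15 (adjusted p = 1.2e-08).

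Psmb9 (ENSMUSG00000096727, chr17:34181987-34187764, minus strand), which replaces Psmb6 and stands next to Tap1, was measured on few reads: 27 and 41 in DMSO 1 and 2, 47 and 126 with 1.25 µM and 25 and 6 with 2.5 µM, or 1.46 and 2.42, 3.23 and 4.06, and 1.58 and 0.531 CPM. Both 1.25 µM libraries were above both controls, while the 2.5 µM libraries overlapped them. The log2 change was 0.94 ± 0.34 (adjusted p = 0.0244) at 1.25 µM and -0.78 ± 0.42 (adjusted p = 0.103) at 2.5 µM. The first call was lost without DMSO 1 (adjusted p = 0.224) or without the second 1.25 µM library (0.170), as well as with the naming set fitted alone (0.126) and with only the groups compared (0.0604). The second value passed as lower without DMSO 1 (-1.12, adjusted p = 0.0329), without the first 2.5 µM library (-1.82, adjusted p = 0.00836) and under total-count scaling (-1.14, adjusted p = 0.0168). Its exons overlap 212 bases of Tap1 on the other strand, and those of Psmb8 overlap 498 bases of Gm20496. The counting strand is not stated by the sources used here. Reads in such overlaps may have been left out as ambiguous or counted for the other gene.

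The constitutive catalytic subunits were instead highest at the higher dose. Psmb5 (ENSMUSG00000022193, chr14:54614119-54618022, minus strand), the subunit with chymotrypsin-like activity, stood at 46.9 and 41.0 CPM in DMSO 1 and 2, 49.2 and 46.5 CPM with 1.25 µM and 77.5 and 74.4 CPM with 2.5 µM. The 1.25 µM libraries overlapped the controls (log2 0.12 ± 0.09, adjusted p = 0.328), and those of 2.5 µM were above both groups (0.79 ± 0.09, adjusted p = 7.8e-09).

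Psmb6 (ENSMUSG00000018286, chr11:70525367-70527858, plus strand), the caspase-like subunit, stood at 58.0 and 55.0, then 66.5 and 67.4, then 87.0 and 80.9 CPM in the same order. The 3 groups did not overlap, and the changes from DMSO were 0.24 ± 0.07 (adjusted p = 0.00637) and 0.57 ± 0.07 (adjusted p = 4.1e-08) on the log2 scale. The difference between the doses, 0.33 (adjusted p = 1.6e-04), was -0.052 under total-count scaling.

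Psmb7 (ENSMUSG00000026750, chr2:38588036-38644087, minus strand), the trypsin-like subunit, stood at 143 and 147, then 172 and 160, then 317 and 293 CPM. The groups stood in the order of dose without overlap, at 0.19 ± 0.07 (adjusted p = 0.0182) and 1.07 ± 0.07 (adjusted p = 2.0e-15) on the log2 scale. At 1.25 µM the Psmb6 call was lost without DMSO 2 (adjusted p = 0.0843), and the Psmb7 call without DMSO 1 (0.119), DMSO 2 (0.0609) or the first 1.25 µM library (0.142).

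**Figure D2:**
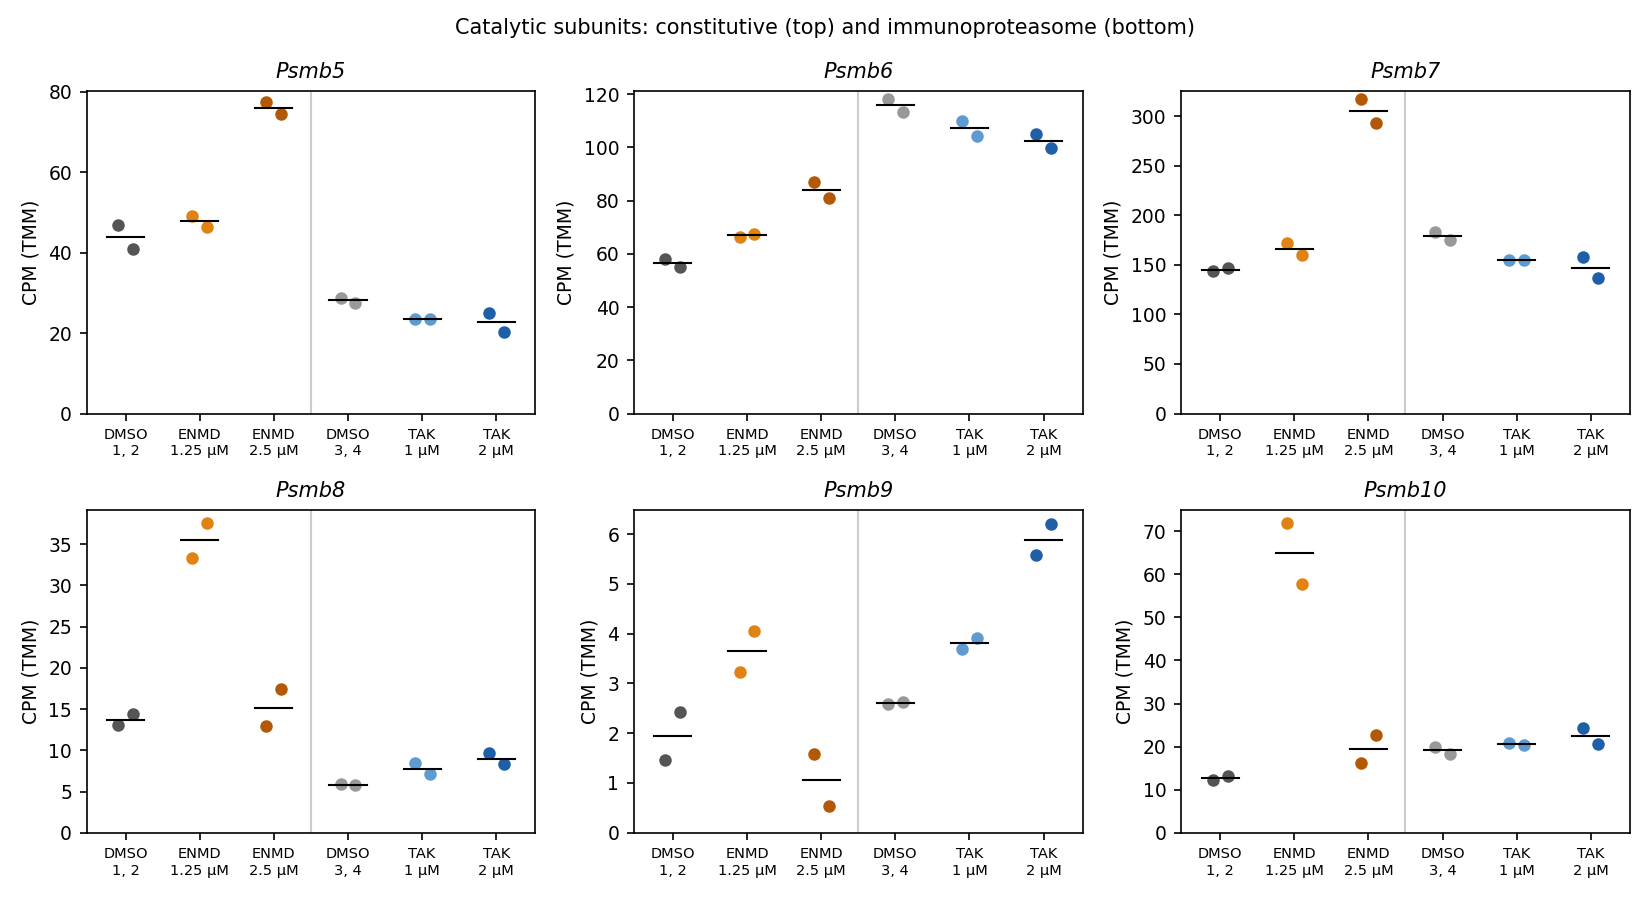
Level of the 3 constitutive catalytic subunits and the 3 immunoproteasome subunits in each library (vertical axis, TMM-scaled CPM; horizontal axis, the 6 groups; points are libraries and lines are means of 2). Psmb10 reaches 72.0 and 57.7 CPM at ENMD-2076 1.25 µM and 16.3 and 22.6 at 2.5 µM, while Psmb7 reaches 317 and 293 CPM at 2.5 µM.

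Per length, within set 1 the inducible form of each catalytic pair had its highest ratio to the constitutive one at the lower ENMD-2076 dose and its lowest at the higher. The ratio of Psmb10 to Psmb7 was 0.170 and 0.179 in DMSO 1 and 2, 0.841 and 0.725 with 1.25 µM and 0.103 and 0.155 with 2.5 µM. The ratio of Psmb8 to Psmb5 was 0.0738 and 0.0937, then 0.180 and 0.215, then 0.0444 and 0.0623. The ratio of Psmb9 to Psmb6 was 0.0129 and 0.0225, then 0.0249 and 0.0308, then 0.00928 and 0.00335. In all 3 pairs both 1.25 µM libraries were above, and both 2.5 µM libraries below, both controls; these ratios were described and not tested.

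**Figure D3:**
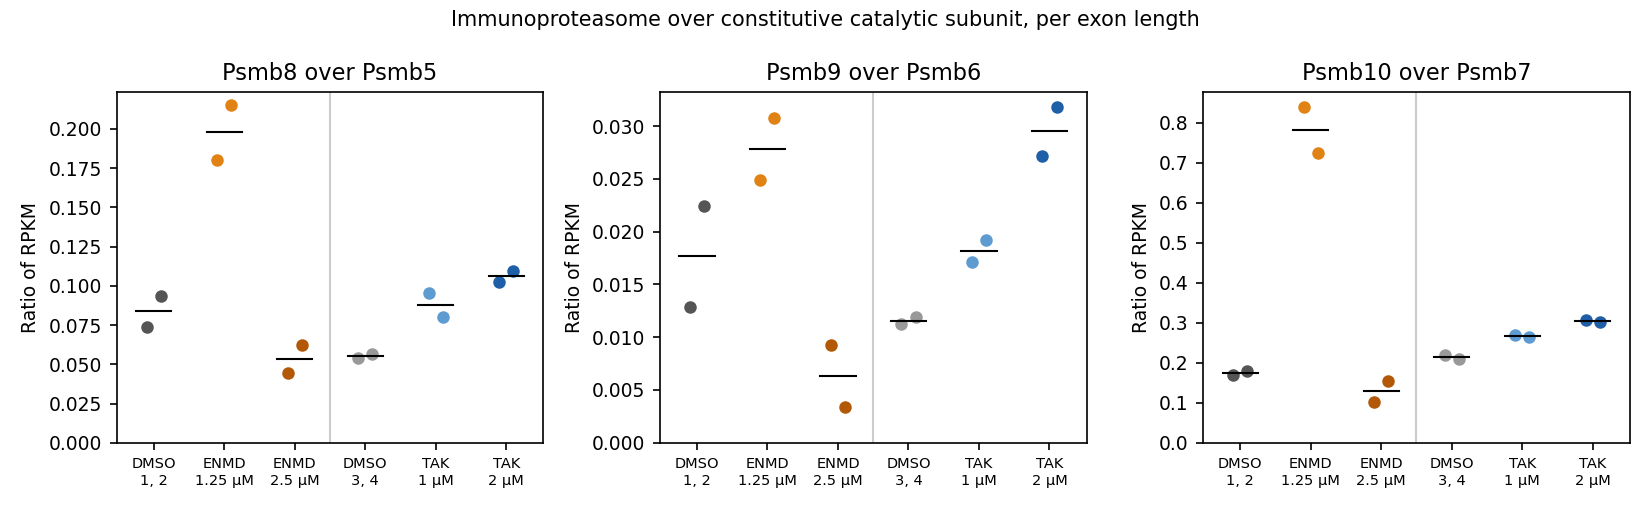
Ratio of each immunoproteasome subunit to the constitutive subunit it replaces, per length, in each library (vertical axis, ratio of RPKM; horizontal axis, the 6 groups; points are libraries, lines are means of 2). The ratio of Psmb10 to Psmb7 is 0.841 and 0.725 at ENMD-2076 1.25 µM and 0.103 and 0.155 at 2.5 µM; with TAK901 it is 0.264 to 0.308 against 0.219 and 0.211 in DMSO 3 and 4.

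Immune cells carry the immunoproteasome, so the 6 haematopoietic markers were read beside it. Their sum was 11.2 and 12.3 CPM in DMSO 1 and 2, 14.8 and 14.8 CPM with 1.25 µM and 5.17 and 5.68 CPM with 2.5 µM, nearly all of it Cd68, a lysosomal gene that other cells also express. Ptprc, which encodes the pan-leukocyte antigen CD45, was at 0 in both 1.25 µM libraries, and Adgre1 and Cd3e were at 0 in all 6 libraries of set 1. Itgam was at 0.0324 CPM in the second 1.25 µM library and at 0 in the rest of set 1. Like the 3 immunoproteasome subunits, the marker sum was highest at 1.25 µM, and its part in the result was not tested.

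Psme1 and Psme2, which form the interferon-inducible activator ring on the core, moved as a pair. Psme1 (ENSMUSG00000022216, chr14:55578123-55581529, plus strand) stood at 47.5 and 50.4 CPM in DMSO 1 and 2, 122 and 116 CPM with 1.25 µM and 44.8 and 42.4 CPM with 2.5 µM. Psme2 (ENSMUSG00000079197, chr14:55587441-55591113, minus strand) stood at 49.3 and 54.9, then 140 and 130, then 48.8 and 45.1 CPM. The rise at 1.25 µM was 2.43-fold for Psme1 (log2 1.28 ± 0.08, adjusted p = 8.1e-15) and 2.59-fold for Psme2 (1.37 ± 0.09, adjusted p = 1.1e-14). At 2.5 µM the values were -0.16 (adjusted p = 0.0891) and -0.14 (adjusted p = 0.164), just below the controls without overlap and not past the threshold. Under total-count scaling both passed as lower (-0.52, adjusted p = 2.4e-06, and -0.50, adjusted p = 1.4e-05). The ratio of Psme2 to Psme1 per length stayed between 1.08 and 1.44 in the 12 libraries. A near-identical copy, Psme2b, was counted at no more than 0.193 CPM in set 1 and at 13.4 to 18.4 CPM in set 2. Reads of Psme2 and Psme2b may therefore be split between them in set 2, or left out as not uniquely aligned.

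Psme3, the nuclear homolog of the same ring, had a smaller change in the same directions. It stood at 106 and 105, 122 and 118, and 98.5 and 96.7 CPM (log2 0.18, adjusted p = 0.0160, at 1.25 µM and -0.11, adjusted p = 0.129, at 2.5 µM), and was lower at 2.5 than at 1.25 µM by a log2 value of -0.30 (adjusted p = 1.3e-04). Under total-count scaling its 2.5 µM value against DMSO was -0.47 (adjusted p = 1.7e-07) and passed as lower. Psmf1, an inhibitor of the core, stood at 25.2 and 21.7, 22.3 and 21.9, and 35.9 and 38.1 CPM and rose at 2.5 µM by 0.65 ± 0.11 (adjusted p = 5.0e-06).

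With ENMD-2076 at 2.5 µM the core and the 19S particle rose together. Of 46 members 33 rose (33.2% of all genes tested did) and 3 fell (37.1%), 70.3% of all genes having passed either way. The members' median was 0.72 on the log2 scale, against -0.02 over all genes. In 40 members the groups did not overlap, against a background of 79.5%. All 7 alpha subunits rose (0.62 to 1.56), as did all 7 constitutive beta subunits (0.57 to 1.61). Of the ATPases 5 rose and Psmc6 fell, and of the non-ATPase subunits 9 rose while Psmd11 and Psmd12 did not pass the test. Among the 3 immunoproteasome subunits only Psmb10 passed, as higher, and Psmf1 rose and Psme4 fell among the activators and regulators. Of the assembly factors Psmd5, Psmd9 and Psmg3 rose and Psmg2 fell.

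The summed level shows the same by class. The alpha subunits summed to 950 and 971 CPM in DMSO 1 and 2, 1218 and 1208 CPM with 1.25 µM and 2191 and 2072 CPM with 2.5 µM, and the constitutive beta subunits to 810 and 807, 927 and 894, and 1708 and 1640 CPM. The immunoproteasome subunits summed to 26.7 and 29.9, 109 and 99.3, and 30.8 and 40.6 CPM. The activators and regulators summed to 439 and 451, 674 and 683, and 391 and 363 CPM, thus highest at the lower dose, while the assembly factors summed to 202 and 196, 213 and 218, and 375 and 374 CPM.

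**Figure D4:**
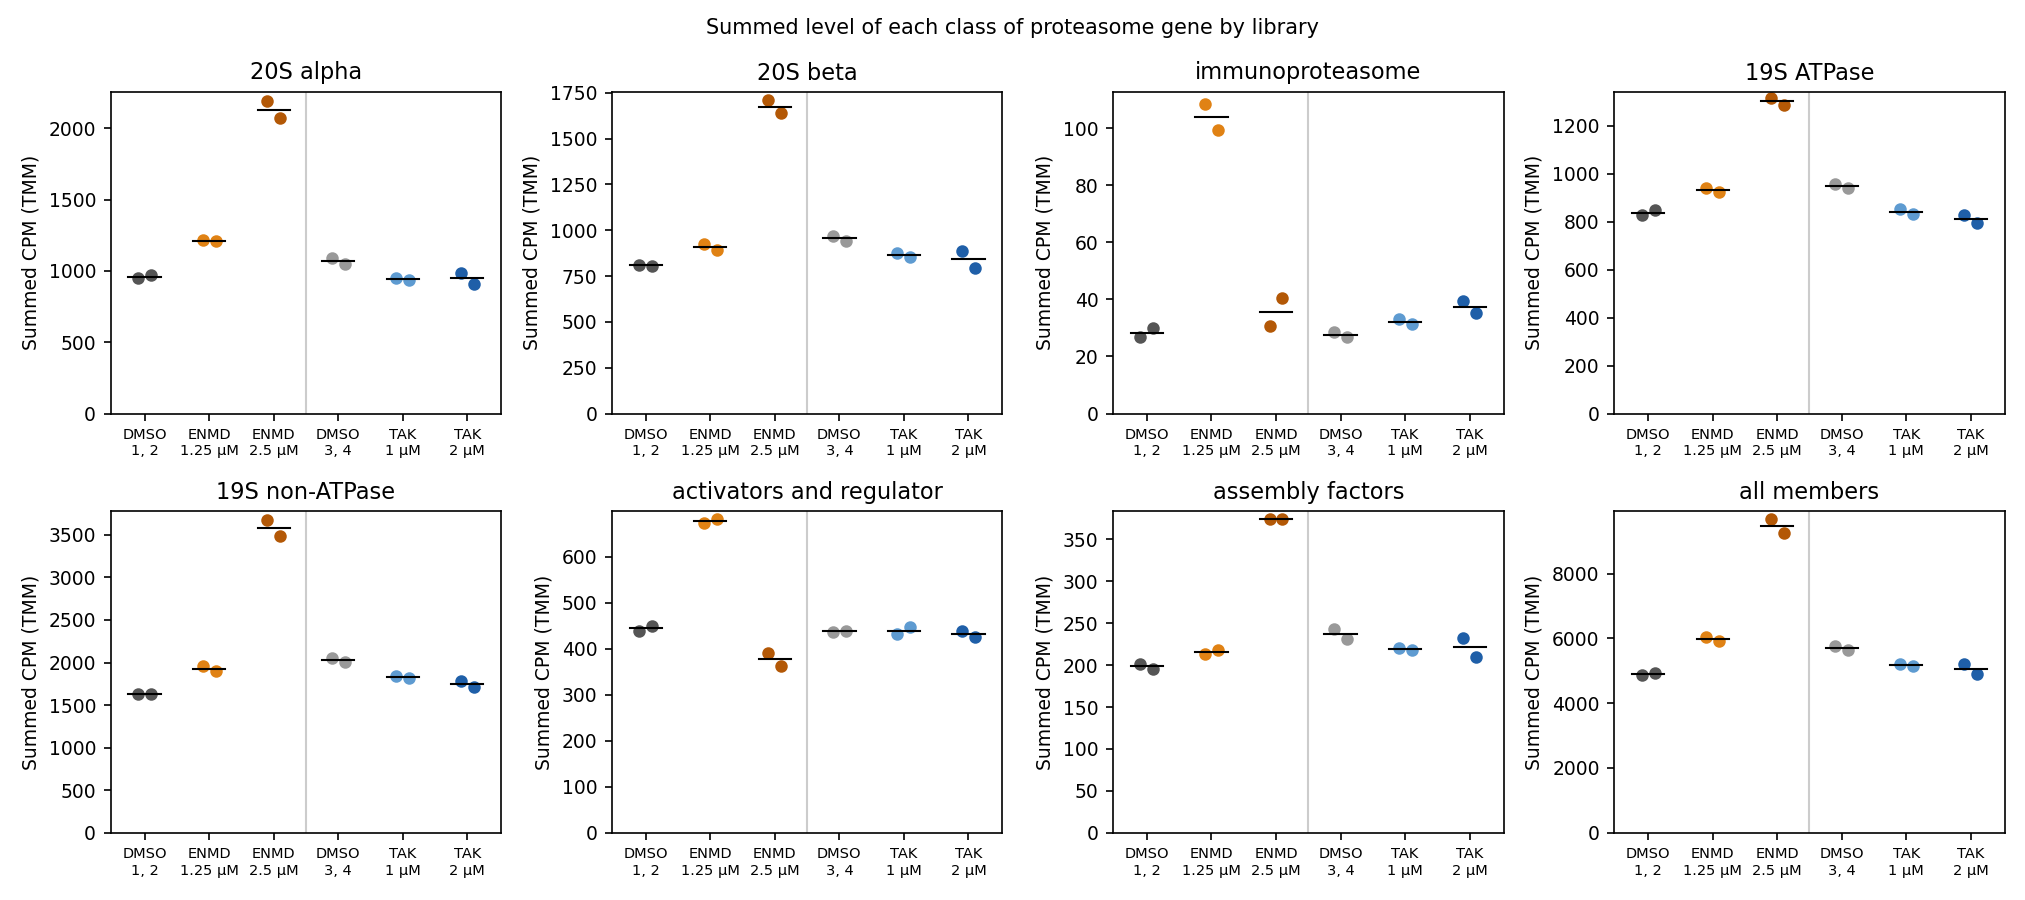
Summed level of the members of each class and of all members in each library (vertical axes, summed TMM-scaled CPM; horizontal axes, the 6 groups; points are libraries, lines are means of 2). Alpha and beta sums are highest at ENMD-2076 2.5 µM (2191 and 2072 CPM for alpha), and the immunoproteasome sum at 1.25 µM (109 and 99.3 CPM).

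Psmd1, the largest scaffold subunit of the 19S base, had the largest rise at 2.5 µM. Psmd1 (ENSMUSG00000026229, chr1:86064387-86139151, plus strand) stood at 153 and 149 CPM in DMSO 1 and 2, 226 and 230 CPM with 1.25 µM and 653 and 608 CPM with 2.5 µM. The 3 groups were ordered by dose without overlap, at 0.59 ± 0.06 (adjusted p = 4.9e-10) and 2.06 ± 0.06 (4.18-fold, adjusted p = 2.4e-23) on the log2 scale. Psmd2 (ENSMUSG00000006998, chr16:20651652-20663414, plus strand), its partner scaffold, stood at 359 and 367, 463 and 441, and 1232 and 1166 CPM. It rose at both doses, by 0.32 ± 0.06 (adjusted p = 2.2e-05) and 1.72 ± 0.06 (3.30-fold, adjusted p = 8.0e-22).

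Psmb3 (ENSMUSG00000069744, chr11:97703399-97713500, plus strand), a beta subunit without a catalytic site, stood at 109 and 103 CPM in the controls, 121 and 103 CPM with 1.25 µM and 329 and 319 CPM with 2.5 µM. It overlapped the controls at the lower dose (0.07, adjusted p = 0.499) and rose 3.05-fold at the higher (log2 1.61 ± 0.07, adjusted p = 1.4e-18). Next in size were the alpha subunits Psma6, at 183 and 195 CPM in the controls and 568 and 546 CPM at 2.5 µM (log2 1.56), and Psma2, at 87.9 and 91.4 and at 270 and 241 CPM (1.51).

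The smaller of these changes depended on the scaling. With scaling by total counts the median over all genes moved from -0.02 to -0.37 and that of the members from 0.72 to 0.36, so that the members lay 0.74 above all genes both ways. The split was then 28 higher and 11 lower. Shares of all genes are not given for total-count scaling, so counts under it, here and below, stand without a background. All alpha and all constitutive beta subunits stayed higher. Of the other classes, the ATPases had 4 higher and 1 lower, the non-ATPase subunits 7 and 2, the immunoproteasome 0 and 1, the activators and regulators 1 and 4, and the assembly factors 2 and 3. The sign turned for Psmd4, Psmd6, Psmd10, Psmd11, Psmg1 and Psmb8.

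A few members went against the rest at 2.5 µM. Psmg2 (ENSMUSG00000024537, chr18:67641599-67654162), a chaperone that starts the assembly of the alpha ring, stood at 19.6 and 18.7 CPM in DMSO 1 and 2, 21.2 and 19.3 CPM with 1.25 µM and 3.92 and 4.69 CPM with 2.5 µM. It overlapped the controls at the lower dose (0.07, adjusted p = 0.677) and fell 4.50-fold at the higher (log2 -2.17 ± 0.16, adjusted p = 1.4e-13), where the groups did not overlap. Its partner Psmg1 stood at 18.9 and 21.3, 18.98 and 17.4, and 22.4 and 22.6 CPM and did not pass at either dose.

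Psme4 (ENSMUSG00000040850, chr11:30771726-30880361, plus strand), a large nuclear activator that caps the core, stood at 211 and 218 CPM in the controls, 269 and 297 CPM with 1.25 µM and 163 and 141 CPM with 2.5 µM. It rose at the lower dose (0.40 ± 0.06, adjusted p = 4.6e-06) and fell at the higher (-0.50 ± 0.07, adjusted p = 8.3e-08), the groups not overlapping. The ATPase Psmc6 (ENSMUSG00000021832, chr14:45329788-45349705, plus strand) stood at 146 and 139, 127 and 134, and 119 and 107 CPM and fell at 2.5 µM by 0.32 ± 0.07 (adjusted p = 1.0e-04), whereas the other 5 ATPases rose.

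The 3 chaperones of the 19S base differed among themselves. Psmd9 (ENSMUSG00000029440, chr5:123169413-123250131, plus strand) stood at 36.0 and 32.3 CPM in DMSO 1 and 2, 26.1 and 25.7 CPM with 1.25 µM and 77.2 and 76.0 CPM with 2.5 µM, so it fell at the lower dose (-0.40 ± 0.10, adjusted p = 0.00106) and rose at the higher (1.16 ± 0.09, adjusted p = 1.8e-12). Its exons overlap 1849 bases of Gm26745 on the other strand. Psmd5 stood at 84.3 and 78.6, 81.1 and 86.6, and 224 and 225 CPM (1.46 at 2.5 µM, adjusted p = 1.4e-17). Psmd10, also known as the oncoprotein gankyrin, stood at 29.6 and 27.3, 48.3 and 54.1, and 29.9 and 27.3 CPM, and rose at the lower dose (0.85 ± 0.10, adjusted p = 2.0e-08) but did not pass at the higher (0.01, adjusted p = 0.954), the doses differing by -0.84 (adjusted p = 1.4e-08). Under total-count scaling its 2.5 µM value against DMSO was -0.35 (adjusted p = 0.00517) and passed as lower.

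**Figure D5:**
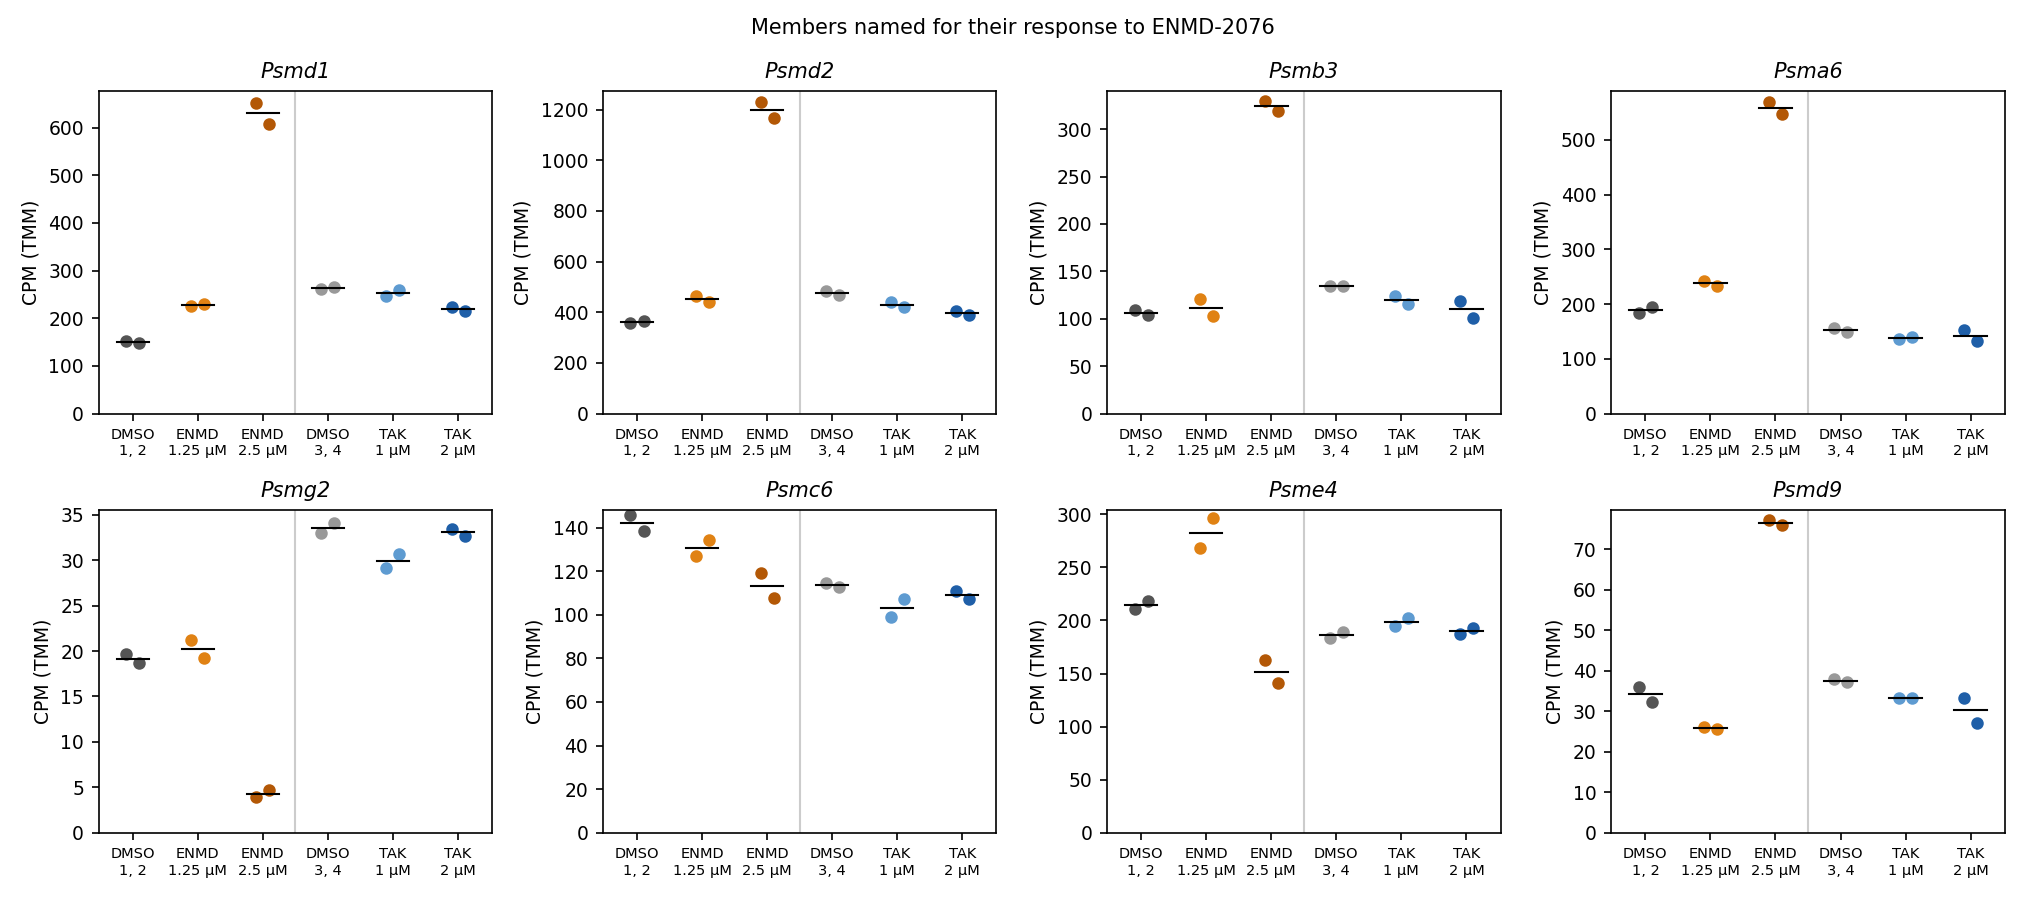
Level of 8 members in each library (vertical axes, TMM-scaled CPM; horizontal axes, the 6 groups; points are libraries, lines are means of 2). Psmd1, Psmd2, Psmb3, Psma6 and Psmd9 are highest at ENMD-2076 2.5 µM, Psmg2 drops there to 3.92 and 4.69 CPM, and Psme4 is highest at 1.25 µM (269 and 297 CPM).

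Set against each other, the 2 doses separated nearly every member. At 2.5 µM 33 of 46 members were higher than at 1.25 µM (35.4% of all genes tested were) and 12 were lower (37.8%; either way 73.3%), with a median log2 difference of 0.61 against 0.00 over all genes, and in 45 members the doses did not overlap, against a background of 80.7%. The higher members included all 7 alpha and all 7 constitutive beta subunits. Those lower included all 3 immunoproteasome subunits and 4 of 5 activators and regulators. The largest differences upward were those of Psmd9 (1.57), Psmb3 (1.54) and Psmd1 (1.47), and downward those of Psmg2 (-2.24, adjusted p = 3.6e-14), Psmb10 (-1.75) and Psmb9 (-1.72, adjusted p = 2.2e-04). Psme1 and Psme2 were lower by a log2 value of -1.45 and -1.52. Under total-count scaling the median over all genes was -0.38 and that of the members 0.23, so the members lay 0.61 above all genes both ways. The split was then 23 higher and 17 lower, with all 3 immunoproteasome subunits and 4 activators and regulators still lower. No share of all genes is given for that scaling. Psma4, Psmb6, Psmc5, Psmd4, Psmd6, Psmd7, Psmd11 and Psmg1 changed sign, and of these Psma4, Psmc5, Psmd6 and Psmd7 passed as lower instead of higher. With TMM scaling, the other members lower at 2.5 than at 1.25 µM were Psmb8, Psmc6, Psmd10, Psmd12, Psme3, Psme4 and Psmg4.

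With TAK901 the constitutive core and 19S genes that passed the test were all lower, and by small amounts. The immunoproteasome subunits Psmb8 and Psmb9 passed as higher at 2 µM. At 1 µM 0 of 46 members rose (3.97% of all genes tested did) and 10 fell (5.17%; either way 9.14%). Their median on the log2 scale was -0.16 against 0.00 over all genes, and 39 did not overlap between groups, against a background of 59.5%. At 2 µM 2 rose (5.63%) and 18 fell (9.28%; either way 14.9%), with a median of -0.18 against -0.02, and 33 did not overlap, against 57.8%. At 1 µM those lower were Psma3, Psma5, Psma7, Psmb4, Psmb7, Psmc4, Psmc5, Psmd6, Psmd7 and Psmd13. At 2 µM they were 2 alpha subunits, 3 beta subunits, every ATPase but Psmc6, 7 non-ATPase subunits and Psme3. The largest fall past the threshold was 0.37 on the log2 scale, and the 2 doses share their controls. Under total-count scaling 3 fell at 1 µM (Psma7, Psmc4 and Psmd6), and at 2 µM 3 rose and 8 fell, with 0 alpha subunits, 1 beta subunit, 2 ATPases, 5 non-ATPase subunits and 0 activators and regulators among the lower. The count at 1 µM was 6 without DMSO 2, 0 without DMSO 3, 2 without DMSO 4, 3 without the first and 0 without the second 1 µM library, and at 2 µM it was 6 without DMSO 3, 9 without DMSO 4, 10 without the first and 6 without the second 2 µM library.

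The largest fall was that of Psmd6 (ENSMUSG00000021737, chr14:14112174-14120984, minus strand), a subunit of the 19S lid. Psmd6 stood at 75.2 and 76.1 CPM in DMSO 3 and 4, 64.3 and 57.1 CPM with 1 µM and 62.4 and 53.2 CPM with 2 µM. Both treated groups were below both controls (-0.32 ± 0.08, adjusted p = 0.00855, and -0.37 ± 0.09, adjusted p = 0.00609). The ATPase Psmc4 (ENSMUSG00000030603, chr7:28041707-28050101, minus strand) stood at 131 and 120, 105 and 104, and 106 and 96.9 CPM and also fell at both doses (-0.27 ± 0.07, adjusted p = 0.00988, and -0.29 ± 0.08, adjusted p = 0.00760). The 1 µM call of Psmd6 was lost without DMSO 3, DMSO 4 or the second 1 µM library (adjusted p 0.0851 to 0.359), and that of Psmc4 without DMSO 3 or either 1 µM library (0.0970 to 0.324). At 2 µM both calls were lost without the second 2 µM library (0.137 and 0.122), and that of Psmc4 also without DMSO 3 (0.145).

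Psma7 (ENSMUSG00000027566, chr2:180036374-180042433, minus strand), an alpha subunit, stood at 207 and 207, 180 and 172, and 181 and 176 CPM and was lower at both doses (-0.24 ± 0.06, adjusted p = 0.00802, at 1 µM). Psmd7 (ENSMUSG00000039067, chr8:107580381-107588464, minus strand), of the lid, stood at 180 and 176, 156 and 155, and 151 and 139 CPM and fell by 0.29 ± 0.07 (adjusted p = 0.00267) at 2 µM. Neither gene overlapped its controls at either dose. The Psma7 call at 1 µM was lost without DMSO 3, DMSO 4 or the second 1 µM library, and the Psmd7 call at 2 µM without the second 2 µM library (adjusted p = 0.0534).

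Of the 6 catalytic subunits 3 passed the test at TAK901 2 µM, Psmb7 as lower and Psmb8 and Psmb9 as higher. Psmb5 stood at 28.7 and 27.6 CPM in DMSO 3 and 4, 23.6 and 23.6 CPM with 1 µM and 25.0 and 20.3 CPM with 2 µM, below the controls but not past the threshold (-0.25, adjusted p = 0.114, and -0.29, adjusted p = 0.129). Psmb6 stood at 118 and 113, 110 and 104, and 105 and 99.8 CPM (-0.11, adjusted p = 0.368, and -0.17, adjusted p = 0.133). Psmb7, at 183 and 175, 154 and 155, and 158 and 136 CPM, fell at both doses (-0.21 ± 0.06, adjusted p = 0.0319, and -0.28 ± 0.07, adjusted p = 0.00706). The 1 µM call of Psmb7 was lost under total-count scaling (adjusted p = 0.0526) and without DMSO 3, DMSO 4 or either 1 µM library (0.0910 to 0.357), and its 2 µM call without DMSO 3 (0.0781) or the second 2 µM library (0.181).

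Psmb8 stood at 5.87 and 5.83 CPM in DMSO 3 and 4, 8.46 and 7.09 CPM with 1 µM and 9.65 and 8.35 CPM with 2 µM, and Psmb9 at 2.59 and 2.63, 3.68 and 3.92, and 5.58 and 6.21 CPM. All treated libraries were above the controls for both genes, with Psmb9 at 2 µM resting on 37 and 26 reads. At 1 µM the values were 0.40 (adjusted p = 0.176) and 0.54 (adjusted p = 0.349). At 2 µM Psmb8 rose 1.56-fold (log2 0.64 ± 0.22, adjusted p = 0.0455) and Psmb9 2.24-fold (1.16 ± 0.36, adjusted p = 0.0254), and both calls were lost without DMSO 3, without DMSO 4 or without either 2 µM library, and 1 of the 2 without either 1 µM library. The haematopoietic sum moved alongside, at 4.43 and 5.49 CPM in DMSO 3 and 4, 5.65 and 7.26 CPM with 1 µM and 9.49 and 7.47 CPM with 2 µM, mostly Cd68, with Ptprc at no more than 0.50 CPM and Itgam, a myeloid integrin, at 0.181 and 0.323, 0.44 and 0.774, and 0.833 and 1.33 CPM; its part in the result was not tested. Psmb10 stood at 20.02 and 18.4, 20.8 and 20.4, and 24.3 and 20.5 CPM and passed at neither dose (0.10, adjusted p = 0.758, and 0.24, adjusted p = 0.368), and Psme1 and Psme2 did not pass either. Per length, the ratio of Psmb8 to Psmb5 was 0.0543 and 0.0562 in DMSO 3 and 4 and 0.0799 to 0.1095 with TAK901, without overlap.

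No member passed the test between the 2 TAK901 doses. The count was 0 of 46 in edgeR's test and 0 in DESeq2 (0.0715% of all genes passed in edgeR, 0.0455% as higher and 0.026% as lower), 17 members did not overlap, against a background of 42.2%, 2 members had an unadjusted p under 0.05, and the smallest adjusted p of a member was 0.287. The compounds were not compared with each other, since doses, controls and naming set all differ.

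The 2 pairs of DMSO libraries also differed, which bears on any comparison of levels across the sets. In either direction 67.4% of the tested members passed the test, near the 67.3% of all genes tested. Of 46 members 24 were higher in DMSO 3 and 4 than in DMSO 1 and 2 (36.6% of all genes tested were) and 7 were lower (30.6%; either way 67.3%), with a median of 0.25 against 0.08 over all genes, and 42 did not overlap, against a background of 83.5%. Psmb6 was higher (1.03, adjusted p = 5.6e-14), as were Psmb7 (0.30, adjusted p = 1.3e-04) and Psmb10 (0.61, adjusted p = 4.1e-04). Psmb5 was lower (-0.64, adjusted p = 6.9e-07), as was Psmb8 (-1.23, adjusted p = 1.4e-07), and Psmb9 did not pass (0.44, adjusted p = 0.269). The source of the cells and the time of the work cannot be told apart from the naming set.

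Among 36 other genes of the pathway, 15 rose and 7 fell at ENMD-2076 1.25 µM (22.6% and 23.2% of all genes did), and 22 rose and 12 fell at 2.5 µM (33.2% and 37.1%), which under total-count scaling became 13 and 16 at the higher dose. Of 9 further proteasome parts and partners 4 rose and 2 fell at 1.25 µM, and 6 rose and 2 fell at 2.5 µM (3 and 4 under total-count scaling). Pomp, the maturation factor of the core, stood at 83.7 and 94.7 CPM in DMSO 1 and 2, 131 and 109 CPM with 1.25 µM and 304 and 293 CPM with 2.5 µM and rose by 0.42 (adjusted p = 4.3e-05) and 1.74 (adjusted p = 1.5e-18). Akirin2, which carries proteasomes into the nucleus, went from 68.0 and 64.1 CPM to 46.6 and 54.5 and to 12 and 14.8 CPM and fell by 0.38 (adjusted p = 9.1e-04) and 2.32 (adjusted p = 5.3e-18).

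Of 5 genes that control proteasome transcription, 2 rose and 1 fell at 1.25 µM, and 1 rose and 3 fell at 2.5 µM. Of all genes 22.6% rose and 23.2% fell at 1.25 µM, and 33.2% rose and 37.1% fell at 2.5 µM. These shares apply to each short list here and in the next paragraph, and no list was tested against them. Nfe2l1, the factor that raises proteasome genes when the proteasome is impaired, stood at 552 and 518, 626 and 602, and 294 and 306 CPM, so its transcript was above the controls at the lower dose (0.20, adjusted p = 0.00345) and below them at the higher (-0.84, adjusted p = 3.1e-14). Its protease Ddi2 had values of -0.51 and 0.59, and the deglycosylase Ngly1 of 0.58 and -1.66, all past the threshold. Of 4 ubiquitin genes 1 rose and 1 fell at 1.25 µM, and 3 rose and 1 fell at 2.5 µM. Of 10 genes of substrate delivery 2 rose and 3 fell at 1.25 µM, and 8 rose and 2 fell at 2.5 µM (4 and 3 under total-count scaling at the higher dose). Vcp, the segregase that extracts ubiquitinated proteins, stood at 300 and 293, 517 and 555, and 710 and 681 CPM (0.85, adjusted p = 8.4e-14, and 1.23, adjusted p = 4.7e-18).

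Of 8 genes that act in antigen processing beside the immunoproteasome, 6 rose and none fell at 1.25 µM, where Tap1 (-0.08, adjusted p = 0.736) and Nlrc5 (0.02, adjusted p = 0.961) did not pass, and 4 rose and 4 fell at 2.5 µM (2 and 4 under total-count scaling). Nlrc5, an activator of MHC class I genes, fell from 54.7 and 47.9 CPM in DMSO 1 and 2 to 6.63 and 4.07 CPM at 2.5 µM, and Irf1, an interferon-induced factor, had log2 values of 1.32 (adjusted p = 2.0e-13) and 0.52 (adjusted p = 2.2e-05). Under total-count scaling the 2.5 µM value of Irf1 was 0.16 (adjusted p = 0.152) and did not pass. With TAK901, 4 of the 36 rose and 1 fell at 1 µM (3.97% and 5.17% of all genes did), and 8 rose and 6 fell at 2 µM (5.63% and 9.28%), or 10 and 3 under total-count scaling. There Nfe2l2, the antioxidant response factor, rose at both doses (0.30, adjusted p = 9.2e-04, and 0.36, adjusted p = 1.7e-04), and Vcp fell at 2 µM by 0.31 (adjusted p = 4.7e-04).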

How the data were processed

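The authors deposited raw read counts per gene, 1 table for each library, and every value was a whole number. Per the submitters' processing notes, mm10 was the mouse build, and HTSeq, TopHat, Bowtie, DESeq2 and FastQC 0.11.3 were used, in no stated order. Annotation and strand setting are not given in the sources, and 13 members share exon bases with another gene, 11 of them with a gene on the opposite strand. HTSeq summary lines were removed. Gene names, exon lengths and coordinates came from GENCODE mouse release 21 (GRCm38), which matched 37607 of 38924 IDs. Counts of all 12 libraries were filtered by expression, TMM-scaled and fitted by edgeR 4.0.16 (R 4.3.3) with 6 groups and its quasi-likelihood test on 15375 genes. Adjusted p-values are Benjamini-Hochberg values over all these genes, with a threshold of 0.05. SEs were derived from the fold change and its F statistic. CPM are TMM-scaled, and RPKM divide them by exon length. A floor of 3 reads stood at 0.0966 to 0.716 CPM. On simulated counts the fit recovered 68 to 96% of genes changed 2- or 4-fold. Named in full were the 6 catalytic subunits and, in each comparison of treatments, the 3 largest rises and falls past the threshold; other members named with values were chosen after these were seen. The members and lists were chosen with earlier results of these data known. Replicate pairs differed by more than counting noise, so none was counted as a duplicate. The alternatives were other scalings, filters and tools, the naming set alone, only the groups compared, a replicate block and leaving out each library. No protein comparison was made.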

Additional observations from a re-analysis of the deposited data

How the results depend on the processing

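The counts of members past the threshold with ENMD-2076 stayed within 1.5 times of 29, 36 and 45 (1.25 µM, 2.5 µM, between doses) under all alternatives run. Their split by direction moved with total counts. At 2.5 µM it went from 33 higher and 3 lower to 28 and 11, and between doses from 33 and 12 to 23 and 17. The members' median log2 value at 2.5 µM, 0.72, ranged from 0.36 with total counts to 0.88 with RLE scaling. The TAK901 counts against DMSO did not stay within 1.5 times. At 2 µM the count of 20 became 13 with RLE scaling, 13 with upper-quartile scaling, 11 with total counts and 13 in DESeq2, and 6 to 22 leaving out a library. At 1 µM the count of 10 became 3 with total counts, 20 with the naming set fitted alone and 25 with only the groups compared, and 0 to 13 leaving out a library. Among the members named in full in each comparison, the sign turned for Psmb8 at ENMD-2076 2.5 µM with total counts (-0.23). The Psmb8 sign also turned without the second 2.5 µM library (-0.051, in a range to 0.37 without the first). For Psmb6 it turned between ENMD-2076 doses with total counts (-0.052). For Psmb5 and Psmb7 it turned between TAK901 doses without the second 2 µM library (0.083 and 0.028, in ranges down to -0.21 and -0.18 without the first). Other members also changed sign with total counts. Those at ENMD-2076 2.5 µM and between its doses are listed above. At TAK901 2 µM against DMSO 3 and 4 they were Psmb1, Psmf1, Psmg1 and Psmg2, none past the threshold. The cause of these changes was not tested. The replicate numbers did not pair the libraries: same-numbered libraries' deviations had correlations between -0.0217 and 0.0199. With the replicate block the counts were 29, 36 and 45 with ENMD-2076 and 0 between TAK901 doses, as without it. Each group held 2 libraries, and the TAK901 2 µM libraries, at 6.00 and 3.75 M reads, gave Psmb9 37 and 26 reads.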
